A study of Mus musculus with 9 samples.

Results

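NRF2, the transcription factor encoded by Nfe2l2, its inhibitor KEAP1 and 6 of the antioxidant genes that NRF2 is known to switch on (Nqo1, Gclc, Gclm, Hmox1, Txnrd1 and Srxn1) were examined in mouse liver. Members were taken by gene symbol, using every probe set that the array annotation pairs with exactly 1 symbol. All 8 genes were found, as 17 of the 32801 such probe sets on the array, which represent 17514 genes. A probe set is a group of short probes read together as 1 measurement, and 6 of the 8 genes had several.

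The livers came from c57Bl/6 mice, in 4 arrays labelled control and 5 labelled HFD. All mice ate chow before the study. The HFD group then received a Harlan-Teklad high-fat diet listed with 21% fat and 42% of its calories as fat, and the diet of the control group is named only as control. Sex, age, length of feeding and any batch are absent from the labels. Whether the arrays came from separate animals is not stated either, so a p-value speaks for the spread of the arrays alone, and that spread may be technical. Each value is a log2 difference from a baseline that the authors set per probe set, so groups can be compared within a probe set, while levels of different genes, and whether a liver marker is present at all, cannot be read. Each difference is the HFD mean minus the control mean (log2) ± the standard error from limma, and a change was called at an adjusted p under 0.05 over all 41782 probe sets tested.

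In a cell at rest, KEAP1 hands NRF2 to a CUL3 ubiquitin ligase, and NRF2 is destroyed soon after it is made. Oxidants and reactive foreign compounds modify KEAP1, NRF2 builds up, pairs with small MAF proteins and binds antioxidant response elements near genes of glutathione synthesis, thioredoxin recycling, quinone detoxification and haem breakdown. In liver this programme is known for protection against toxic drugs and bile acids, and because much of the control lies in protein stability, the mRNA of Nfe2l2 need not follow the activity of NRF2.

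The mRNA for NRF2 was called higher in the HFD group in 1 of its 2 probe sets, and none of the 13 probe sets of its 6 targets passed the test. With 3.26% of all probe sets called, 0 of 13 does not set the targets apart from the rest of the array. Of the 17 member probe sets 1 was called higher and 0 lower, against a background of 2.04% of all probe sets called higher, 1.23% called lower and 3.26% called in either direction. At an unadjusted p under 0.05, limma gave 7 of the 17, 5 of them higher and 2 lower, and 4 of the 13 target probe sets, where 16.4% of all probe sets reached that level. The groups did not overlap in 2 of the 17, both with HFD above, where 4.5% of all probe sets had HFD above, 3.5% had HFD below and 8% had either. The median difference of the 17 was -0.046, beside -0.0078 over all probe sets, and 8 of the 17 differences were above 0, as were 47.9% of all. The median of their absolute differences was 0.255, beside 0.104 over all probe sets.

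**Figure D1:**
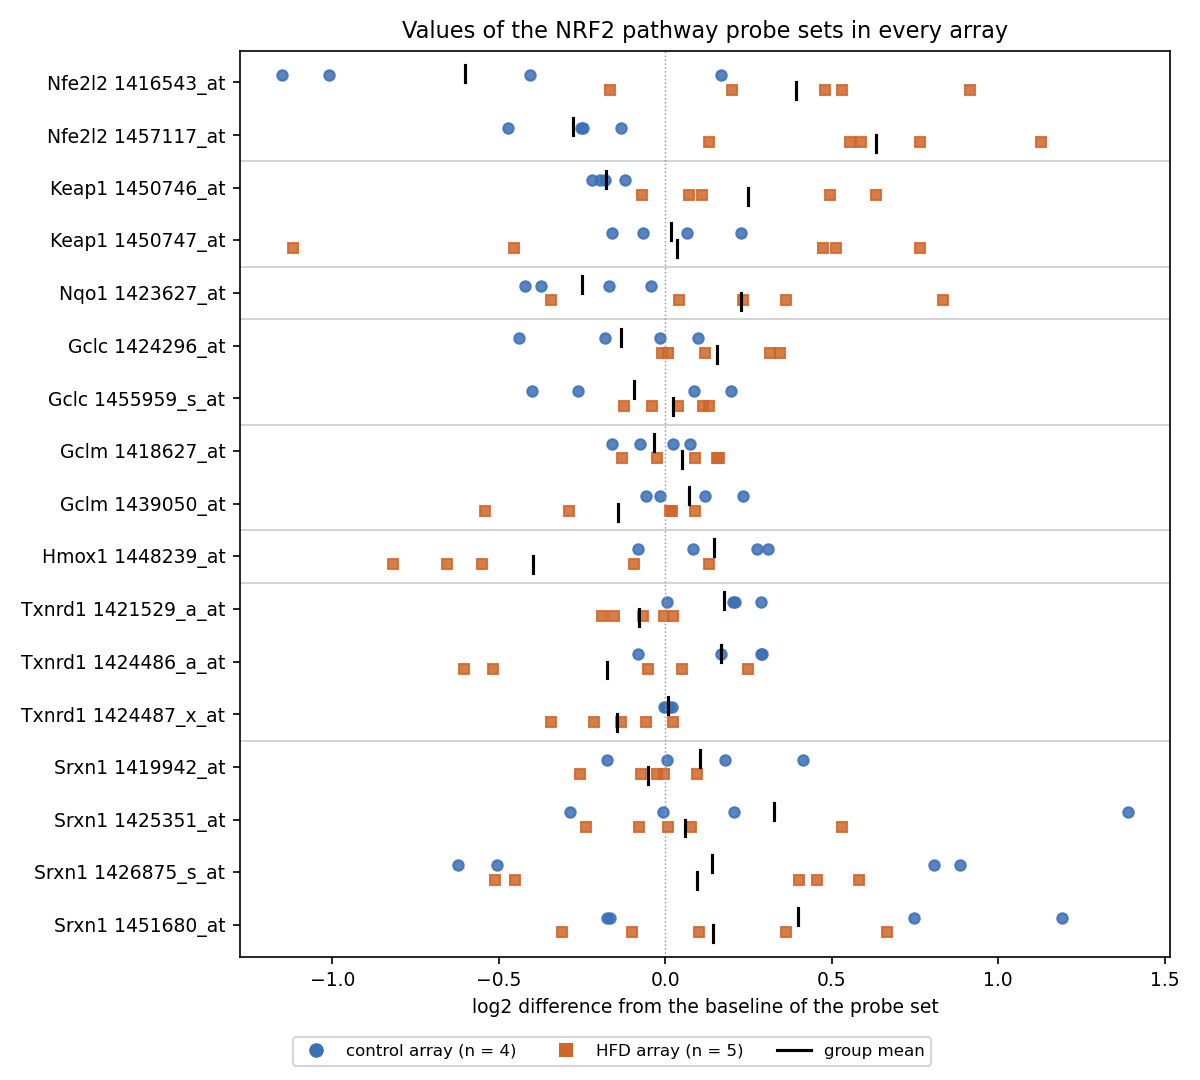
Log2 values of the 17 probe sets (rows) in every array, relative to the probe set's own baseline, with circles for the 4 control arrays, squares for the 5 HFD arrays and black ticks for group means. The groups are apart in Nfe2l2 1457117_at and Keap1 1450746_at, and control arrays of Srxn1 are spread from -0.62 to 1.39.

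HFD replicates 3 and 5 stood apart from the other arrays. Control probe sets lie near the 3′ and the 5′ end of Gapdh and Actb, and their difference, 3′ minus 5′, is a usual sign of RNA integrity and labelling. It was 0.41 and 0.74 in HFD replicates 3 and 5 for Gapdh, and between -0.28 and -0.046 in the other 7 arrays. For Actb it was 0.77 and 1.12, and between -0.45 and 0.20 in the others. The standard deviation of all values was also highest in these arrays, 0.267 and 0.335, against 0.221 to 0.245. Both were low together, below every other array, in 3 member probe sets (Keap1 1450747_at, Gclm 1439050_at and Txnrd1 1424486_a_at), and above every other array in 2 (Keap1 1450746_at and Gclc 1424296_at). Member differences that moved by over 1.5 times, and calls that ended, without these arrays are given beside the result, and the part of RNA integrity in those results was not tested.

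Nfe2l2 encodes NRF2 itself, and the 250 bases before its start of transcription are shown because this was the member that passed the test. They lie on the minus strand of chromosome 2 (GRCm38.p6, RefSeq, chr2:75704664-75704913), and capitals mark the match to TGACNNNGC, the core of the antioxidant response element, searched on both strands.
Nfe2l2: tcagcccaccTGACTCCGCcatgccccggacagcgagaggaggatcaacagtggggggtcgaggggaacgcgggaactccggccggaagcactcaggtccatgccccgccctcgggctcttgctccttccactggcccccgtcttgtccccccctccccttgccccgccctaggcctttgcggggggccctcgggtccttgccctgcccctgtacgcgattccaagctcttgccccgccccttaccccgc
The match begins 240 bases before the start. Windows were at hand for 6 member genes, without Gclc and Hmox1. The motif was found in 3 of the 8 windows of these genes, and in 10.2% of all 32851 windows of this length. The other matches were GCACCGTCA in the Gclm window and GCTTTGTCA in 1 of the 3 Txnrd1 windows, which are the motif on the opposite strand. A match describes letters in this window and is not a measured binding site.

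In probe set 1457117_at, Nfe2l2 stood at -0.13, -0.47, -0.25 and -0.25 in control replicates 1 to 4, and at 0.13, 0.76, 1.13, 0.59 and 0.55 in HFD replicates 1 to 5. Every HFD array was above every control array. The difference was 0.91 ± 0.17 (1.88-fold, 95% interval 0.54 to 1.28, adjusted p = 0.0161). In 1416543_at the control arrays stood at 0.17, -0.41, -1.15 and -1.01, and the HFD arrays at 0.20, 0.48, 0.92, 0.53 and -0.17. Here HFD replicate 5 lay below control replicate 1, so the groups overlapped. The difference was of like size with a wider error, 0.99 ± 0.28 (95% interval 0.38 to 1.60), and did not pass (adjusted p = 0.0863).

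Averaged over both probe sets, Nfe2l2 rose by 0.95 ± 0.19 (adjusted p = 0.0179). With the more variable of the probe sets standing for the gene, which is 1416543_at, the call ended (adjusted p = 0.0726). The call of 1457117_at also ended without control replicate 2 (0.84, adjusted p = 0.0645) or control replicate 3 (0.92, adjusted p = 0.0510), and 1416543_at passed without control replicate 1 (1.25, adjusted p = 0.0319). Without HFD replicates 3 and 5 the differences were 0.77 ± 0.15 (adjusted p = 0.0358) in 1457117_at and 1.00 ± 0.28 (adjusted p = 0.121) in 1416543_at.

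Keap1, which encodes the sensor that holds NRF2 back, gave different pictures in its 2 probe sets. In 1450746_at the control arrays were close together, at -0.19, -0.12, -0.22 and -0.18, and the HFD arrays stood at 0.11, -0.071, 0.50, 0.071 and 0.63. The groups did not overlap, and the difference of 0.43 ± 0.14 (95% interval 0.12 to 0.73) did not pass (adjusted p = 0.137). In 1450747_at the control arrays stood at 0.23, 0.066, -0.16 and -0.066, and the HFD arrays at 0.47, 0.51, -0.45, 0.76 and -1.12. HFD replicates 1, 2 and 4 were above all controls there and HFD replicates 3 and 5 below all of them, for a difference of 0.019 ± 0.34 (95% interval -0.72 to 0.76, adjusted p = 0.986).

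The arrays that separated the Keap1 probe sets were those with the high 3′ minus 5′ values. HFD replicates 3 and 5 were the highest of all 9 arrays in 1450746_at and the lowest in 1450747_at. Without both, the difference was 0.21 ± 0.079 (adjusted p = 0.226) in 1450746_at and 0.57 ± 0.12 (adjusted p = 0.0430) in 1450747_at, which then passed. Averaged over both probe sets in all arrays it was 0.22 ± 0.12 (adjusted p = 0.365).

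**Figure D2:**
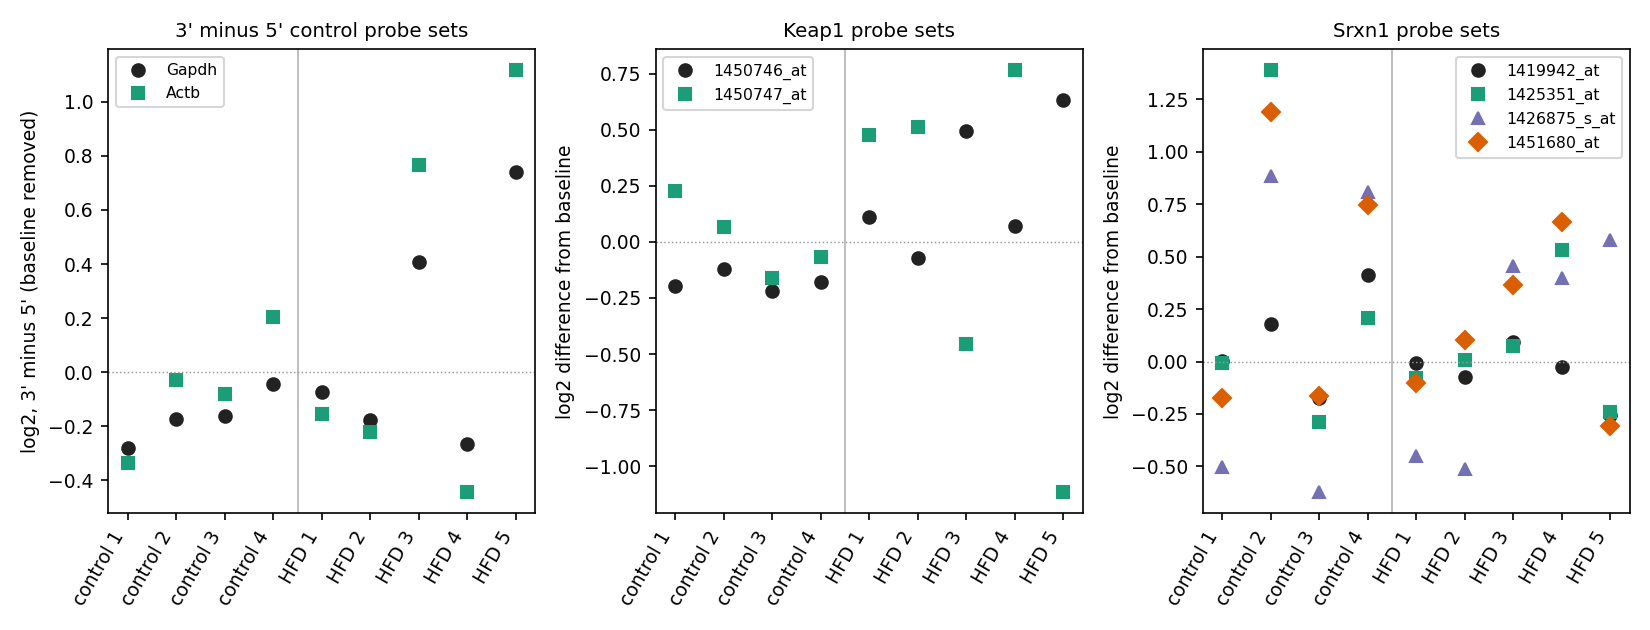
Left, the 3′ minus 5′ difference of the Gapdh and Actb control probe sets in each array (log2, relative to baseline). Middle and right, the log2 values of the 2 Keap1 and the 4 Srxn1 probe sets in the same arrays. HFD 3 and HFD 5 are highest on the left, and the Keap1 probe sets part in these arrays (0.50 and 0.63 against -0.45 and -1.12), while control 2 is high in Srxn1 1425351_at (1.39).

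Nqo1 encodes a quinone reductase that is widely used as a readout of NRF2 activity. It stood at -0.17, -0.37, -0.42 and -0.042 in control and at 0.042, -0.34, 0.83, 0.36 and 0.23 in HFD. All HFD arrays but replicate 2 were above the controls, and HFD replicate 3 was highest. The difference of 0.48 ± 0.20 (95% interval 0.043 to 0.91) did not pass (adjusted p = 0.252), and it was 0.27 ± 0.16 without HFD replicates 3 and 5 (adjusted p = 0.481).

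Gclc and Gclm encode the catalytic and the modifier subunit of glutamate-cysteine ligase, the first step of glutathione synthesis. In Gclc 1424296_at the control arrays stood at 0.097, -0.44, -0.18 and -0.016, and the HFD arrays at 0.0086, -0.0086, 0.35, 0.12 and 0.31. The groups overlapped, with HFD replicates 3 and 5 highest, and the difference of 0.29 ± 0.12 (95% interval 0.020 to 0.56, adjusted p = 0.265) was 0.17 ± 0.13 without them. The other Gclc probe set, 1455959_s_at, differed by 0.12 ± 0.12 (95% interval -0.16 to 0.39), and control replicate 2 was its lowest array (-0.40), as it was in 1424296_at. Leaving out that array brought the differences to 0.018 in 1455959_s_at and 0.19 in 1424296_at. Over all fits that left out 1 array, 1455959_s_at ranged from 0.018 to 0.22, the highest without control replicate 1, with 0.064 without control replicate 3 and 0.18 without control replicate 4, and it was 0.079 without HFD replicates 3 and 5.

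Gclm was the only member whose probe sets had differences of opposite sign. Gclm 1418627_at was among the steadier probe sets of the array, with a standard deviation of 0.118 over all arrays. It ran from -0.16 to 0.074 in control and from -0.13 to 0.16 in HFD, and differed by 0.085 ± 0.087 (95% interval -0.11 to 0.28, adjusted p = 0.695). That difference was 0.17 ± 0.084 without HFD replicates 3 and 5, 0.13 without HFD replicate 5 alone and 0.043 without control replicate 4. Gclm 1439050_at stood at 0.23, -0.015, -0.057 and 0.12 in control and at 0.015, 0.090, -0.29, 0.020 and -0.54 in HFD. Only HFD replicates 3 and 5 lay below the controls there, and the difference of -0.21 ± 0.13 (adjusted p = 0.483) became -0.029 ± 0.091 without them, and -0.11 without HFD replicate 5 alone.

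Txnrd1 encodes the thioredoxin reductase of the cytosol, which keeps thioredoxin reduced, and its 3 probe sets were lower on average in HFD without passing. In 1421529_a_at the control arrays stood at 0.29, 0.20, 0.0048 and 0.21, and the HFD arrays at -0.066, -0.15, -0.0048, -0.19 and 0.022. Only HFD replicate 5 reached above a control array, replicate 3. The difference was -0.26 ± 0.083 (95% interval -0.44 to -0.073, adjusted p = 0.138), and -0.31 ± 0.090 (adjusted p = 0.129) without HFD replicates 3 and 5. The difference of 1424486_a_at was -0.34 ± 0.17 (adjusted p = 0.370), and -0.083 ± 0.12 without HFD replicates 3 and 5, which stood at -0.61 and -0.52. That of 1424487_x_at was -0.15 ± 0.083 (adjusted p = 0.405), with controls between -0.0032 and 0.021, and it was -0.091 ± 0.082 without HFD replicates 3 and 5.

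Srxn1 encodes sulfiredoxin, which repairs over-oxidised peroxiredoxins. Its window of 250 bases before the start is shown because another form of the element, TGANTCAGC, which was added to the search after the sequences were seen, was found in this 1 of the 8 member windows and in 1.02% of all windows. It lies on the plus strand (GRCm38.p6, RefSeq, chr2:152105274-152105523), with the match in capitals, beginning 45 bases before the start.
Srxn1: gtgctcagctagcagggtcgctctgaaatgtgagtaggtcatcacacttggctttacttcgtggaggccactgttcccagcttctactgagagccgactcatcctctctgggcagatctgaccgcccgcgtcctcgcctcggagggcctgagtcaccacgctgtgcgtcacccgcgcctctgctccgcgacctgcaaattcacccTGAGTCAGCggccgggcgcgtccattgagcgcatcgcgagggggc
Searched on both strands, TGACNNNGC was not among the letters of this window.

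Srxn1 varied more among the control arrays than between the groups. In 1425351_at the control arrays stood at -0.0068, 1.39, -0.29 and 0.21, and the HFD arrays at -0.080, 0.0068, 0.076, 0.53 and -0.24. In 1451680_at the control arrays stood at -0.17, 1.19, -0.17 and 0.75, and the HFD arrays at -0.10, 0.10, 0.36, 0.67 and -0.31. Control replicate 2 was the highest array in both, and in 1426875_s_at as well (0.89), where control replicate 4 followed at 0.81 and control replicates 1 and 3 stood at -0.51 and -0.62. The HFD arrays of 1426875_s_at stood at -0.45, -0.51, 0.46, 0.40 and 0.58, so that each group held both high and low arrays. The fourth probe set, 1419942_at, had its highest value in control replicate 4 (0.41).

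No Srxn1 probe set passed. The differences were -0.27 ± 0.29 in 1425351_at, -0.25 ± 0.29 in 1451680_at, -0.046 ± 0.37 in 1426875_s_at and -0.16 ± 0.12 in 1419942_at. Their 95% intervals reached from -0.91 to 0.38, from -0.90 to 0.39, from -0.85 to 0.76 and from -0.42 to 0.11. In 1426875_s_at, with this spread, the interval thus left room for differences anywhere from -0.85 to 0.76. Without control replicate 2 the sign turned in 3 of the probe sets, to 0.088 in 1425351_at, 0.0093 in 1451680_at and 0.20 in 1426875_s_at. In 1426875_s_at it also turned without control replicate 4 (0.18), HFD replicate 1 (0.091) or HFD replicate 2 (0.11), and the difference there was -0.33 ± 0.41 without HFD replicates 3 and 5. Over the fits that left out 1 array, 1425351_at ranged from -0.47 (without control replicate 3) to 0.088, and 1451680_at from -0.45 (without control replicate 1) to 0.0093. The fourth, 1419942_at, ranged from -0.25 without control replicate 3 to -0.056 without control replicate 4. Without HFD replicates 3 and 5, 1425351_at differed by -0.17 ± 0.35. The difference of 1451680_at was also -0.44 without control replicate 3, -0.39 without HFD replicate 4, and -0.14 without control replicate 4 or HFD replicate 5.

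**Figure D3:**
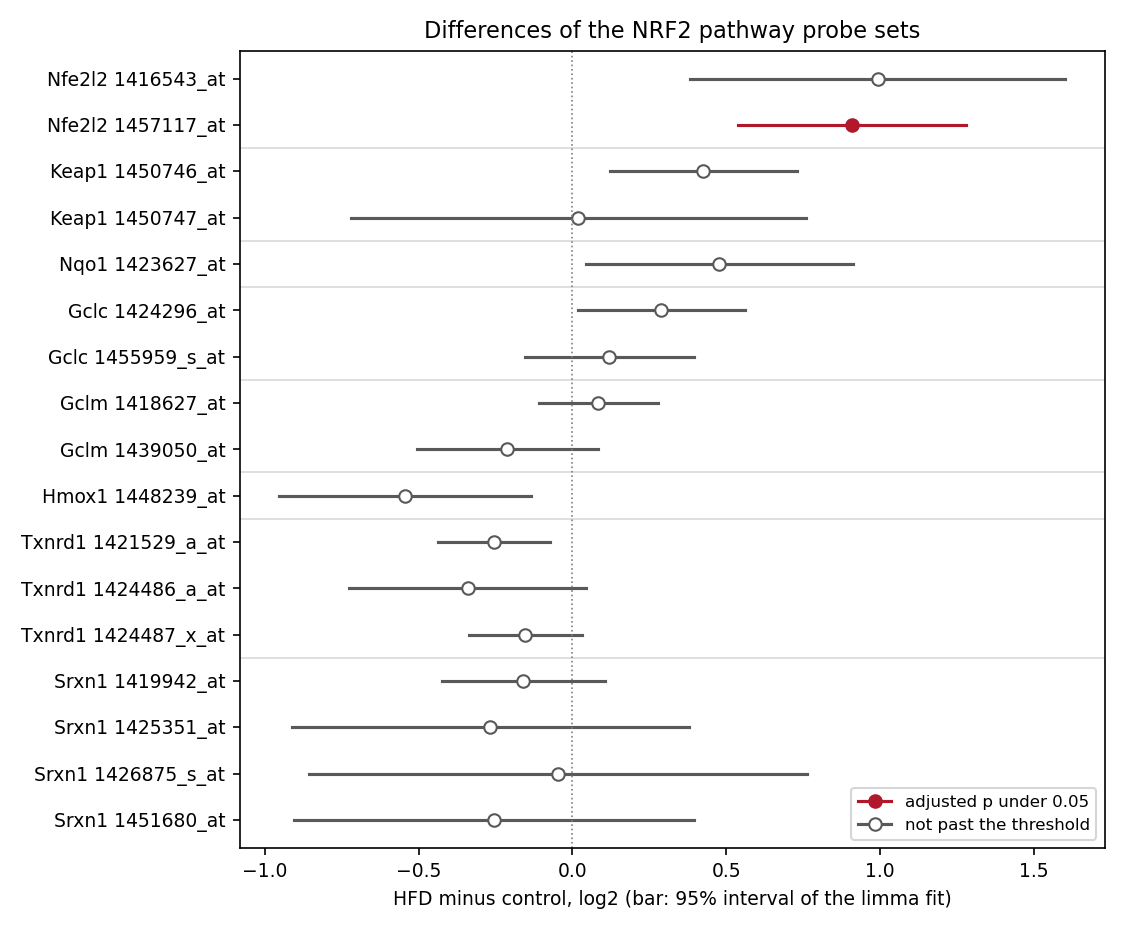
Difference between HFD and control (log2) for each of the 17 probe sets, with bars for the 95% interval of the limma fit and a filled symbol where the adjusted p was under 0.05. Only Nfe2l2 1457117_at (0.91) is filled, and the intervals of 3 Srxn1 probe sets and of Keap1 1450747_at are the widest on both sides of 0.

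Hmox1 encodes haem oxygenase 1, which breaks down haem and in liver is known to be made in Kupffer cells, the resident macrophages that clear aged red cells. It stood at 0.28, 0.31, 0.082 and -0.082 in control and at -0.55, -0.82, -0.092, 0.13 and -0.66 in HFD. HFD replicates 1, 2 and 5 were far below the controls, HFD replicate 3 was just below the lowest control, and HFD replicate 4 lay among the controls. The difference of -0.54 ± 0.19 (95% interval -0.95 to -0.13) did not pass (adjusted p = 0.160). Leaving out HFD replicate 4 brought it past the threshold (-0.68, adjusted p = 0.0467), and with HFD replicates 3 and 5 removed it was -0.56 ± 0.20 (adjusted p = 0.224).

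Kupffer cell markers were lower in the HFD group, and their values are given by array beside those of Hmox1. Of 21 probe sets of 15 markers, 13 (11 genes) were called lower and none higher, with a median difference of -1.25. Over all probe sets 1.23% were called lower and 2.04% higher. Those with the lowest p included Csf1r (-1.15 ± 0.18 in 1423593_a_at), the receptor for a macrophage growth factor, Timd4 (-1.16 ± 0.20) and Folr2 (-1.25 ± 0.22). Others among them were the scavenger receptor gene Cd163 (-1.92 ± 0.35), the lysozyme gene Lyz2 (-1.62 ± 0.30) and Vsig4 (-1.89 ± 0.38), a complement receptor. The mean of the 21 probe sets was 0.88, 1.16, 0.67 and 0.13 in the control arrays and -0.36, -0.70, -0.55, 0.10 and -1.21 in the HFD arrays. Control replicate 4 was the lowest control array and HFD replicate 4 the highest HFD array in both the Kupffer cell mean and Hmox1. The same held for the marker means of sinusoidal endothelium, stellate cells and biliary epithelium, so it was not particular to Kupffer cells. The endothelial mean was 0.44, 0.57, 0.32 and 0.0098 in the control arrays and -0.11, -0.78, -0.51, 0.38 and -0.87 in the HFD arrays. HFD replicate 3 went another way, with a Kupffer cell mean below that of HFD replicate 1 (-0.55 and -0.36) and an Hmox1 value well above it (-0.092 and -0.55). Fewer Kupffer cells and less RNA of their marker genes per cell cannot be told apart in whole liver. The part of either, or of the other cell types, in the Hmox1 values was not tested.

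Single arrays moved the count of 13 Kupffer cell probe sets. Leaving out control replicate 1, 2 or 3 gave 5, 3 or 4 calls, leaving out HFD replicate 1, 2 or 3 gave 8, 6 or 5, and removing HFD replicates 3 and 5 together gave 3. Without control replicate 4, HFD replicate 4 or HFD replicate 5 there were 15, 16 or 10 calls. The 1363 calls over all probe sets moved in these fits too. They were 941, 546, 673 and 830 without control replicates 1 to 4 in turn. Leaving out HFD replicates 1 to 5 in turn gave 1179, 1059, 729, 1481 and 1241, and removing HFD replicates 3 and 5 together gave 928. Of the probe sets named, Csf1r 1423593_a_at and that of Folr2 passed in every one of these fits. Csf1r 1419873_s_at and 1419872_at kept their calls in 3 and 2 of the 9 fits that left out 1 array. Neither passed with HFD replicates 3 and 5 removed (adjusted p = 0.0968 and 0.0588). Timd4 (adjusted p = 0.0513), Cd163 (0.0571) and Lyz2 (0.0701) did not pass with HFD replicates 3 and 5 removed. Cd163 also lost its call without control replicate 2 (adjusted p = 0.0508), Lyz2 without control replicate 2 or 3 (highest adjusted p = 0.0647), and Vsig4 without control replicate 1, 2 or 3 or HFD replicate 3 (highest adjusted p = 0.0864).

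Of the other cell types, the 16 hepatocyte probe sets held 1 call (Apob 1457554_at, 1.27 ± 0.18). The 13 of stellate cells held 1 (Lrat 1421345_at, 0.71 ± 0.17) and the 5 of neutrophils 1 (S100a9, -1.97 ± 0.45). The Apob and Lrat calls were not typical of their lists, where 10 of 16 and 9 of 13 differences were below 0, with a median of -0.058 in each. All 5 neutrophil differences were below 0 (median -0.21). At an unadjusted p under 0.05, limma gave 5 of 16 for hepatocytes, 6 of 13 for stellate cells and 3 of 5 for neutrophils. Apob 1455593_at and Lrat 1444487_at were not called. Over all probe sets 3.26% were called in either direction, and 16.4% had an unadjusted p under 0.05. The Lrat call held in 1 of the 9 fits that left out 1 array, the one without HFD replicate 1 (highest adjusted p = 0.151), and the S100a9 call in 3, those without HFD replicate 1, 4 or 5 (highest adjusted p = 0.107). Neither passed without HFD replicates 3 and 5 (adjusted p = 0.160 and 0.0775). Limma called 0 probe sets of sinusoidal endothelium (6 of 9 at an unadjusted p under 0.05, median difference -0.46, lowest p in Clec4g and Kdr, 4 calls without HFD replicate 4 and 1 without HFD replicate 1), biliary epithelium (0 of 7, Sox9 and Epcam), lymphocytes (1 of 10, Ms4a1 and Cd3e), erythroid cells (1 of 2, Alas2 and Hba-a1) and adipose tissue (0 of 3, Retn and Lep).

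**Figure D4:**
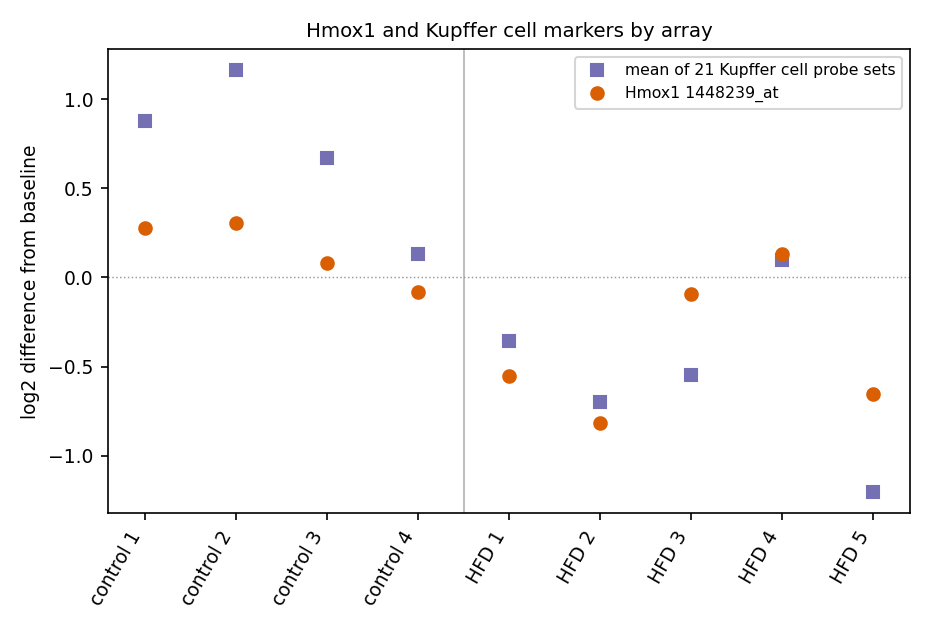
Log2 values of Hmox1 (circles) and the mean of the 21 Kupffer cell probe sets (squares) in each array, relative to baseline. Hmox1 is lowest in HFD 2 (-0.82) and the marker mean in HFD 5 (-1.21), and HFD 4 lies near control 4 in the marker mean (0.10 and 0.13).

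The wider pathway was followed through 7 lists with 91 measured genes and 184 probe sets. Of these, 6 probe sets (4 genes) rose and 8 (6 genes) fell, against 2.04% and 1.23% of all probe sets. The lists, like the members and the cell type markers, were chosen with earlier results of these data known, so a count set beside the background is a description and no test. Among partners and regulators of NRF2, 3 of 44 probe sets rose and none fell (median difference 0.017), and 15 of 17 genes had no call. They were probe sets of Gsk3b, a kinase that marks NRF2 for degradation by a route separate from KEAP1 (0.79 ± 0.12 and 1.00 ± 0.19), and of Crebbp, a coactivator that NRF2 recruits (0.89 ± 0.15, adjusted p = 0.0102). In Gsk3b 1437001_at the controls stood between -0.54 and -0.21 and the HFD arrays between 0.21 and 0.79, without overlap. The call of Gsk3b 1451020_at ended without control replicate 2 (adjusted p = 0.0674) or control replicate 4 (adjusted p = 0.0583). The other 4 probe sets of Gsk3b and 3 of Crebbp did not pass, and averaged over all probe sets neither gene did (0.37 ± 0.096, adjusted p = 0.0521, and 0.33 ± 0.11, adjusted p = 0.136).

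Of 38 probe sets of 25 other NRF2 targets, 2 fell and 1 rose, and the median difference was -0.14. Ugdh, which makes the sugar donor for glucuronidation, fell by 0.69 ± 0.11 (adjusted p = 0.00744), with controls between 0.31 and 0.77 and HFD arrays between -0.28 and 0.0053. Gstp1, a glutathione transferase whose probes may also bind a near-identical relative, fell by 0.73 ± 0.13 (adjusted p = 0.0124). Abcc2, which exports conjugates into bile, rose by 0.43 ± 0.083 (adjusted p = 0.0197), a call that ended when control replicate 2 or 4 or HFD replicate 3 was removed (highest adjusted p = 0.0727) and without HFD replicates 3 and 5 (adjusted p = 0.0771).

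In the glutathione list 2 of 27 probe sets fell and none rose. Slc3a1, a subunit of a cystine transporter, fell by 0.97 ± 0.13 (adjusted p = 0.00445). Gsr, the glutathione reductase, fell by 0.38 ± 0.086 in 1 of its 2 probe sets (adjusted p = 0.0403). The Gsr call ended when any 1 array other than HFD replicate 4 was removed (highest adjusted p = 0.120), and without HFD replicates 3 and 5 (-0.29, adjusted p = 0.111).

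The thioredoxin and peroxiredoxin list held calls in both directions, 2 of 29 probe sets higher and 4 lower, in 3 of 12 genes. They were Sesn3, Sesn1 and Prdx4, and no thioredoxin or thioredoxin reductase gene of the list had a call. Sesn3 and Sesn1 encode sestrins, stress-induced regulators of growth signalling. Sesn3 rose by 1.53 ± 0.17 and 0.78 ± 0.10 in its 2 probe sets (adjusted p = 0.00177 and 0.00403). Sesn3 1453313_at stood between -1.08 and -0.31 in control and between 0.31 and 1.04 in HFD, without overlap. Sesn1 fell by 0.69 ± 0.084 and 0.63 ± 0.11 (adjusted p = 0.00254 and 0.0129), and its other probe sets differed by -0.52 ± 0.20 and 0.012 ± 0.12. The second of these calls ended without control replicate 2 (adjusted p = 0.0532). Prdx4, the peroxiredoxin of the endoplasmic reticulum, fell by 0.57 ± 0.12 and 0.44 ± 0.10 in 2 of its 4 probe sets (adjusted p = 0.0351 and 0.0432), and neither passed without HFD replicates 3 and 5 (adjusted p = 0.113 and 0.0861). Leaving out single arrays also ended these calls, the first without control replicate 1, 2 or 3 or HFD replicate 3 or 5 (highest adjusted p = 0.111), and the second without any array other than control replicate 1 or HFD replicate 5 (highest adjusted p = 0.137). The count of 6 in this list was 3 without control replicate 2.

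In the remaining lists limma called 0 probe sets, and 16.4% of all probe sets on the array had an unadjusted p under 0.05. Of 12 for removal of superoxide and peroxide 1 had an unadjusted p under 0.05. The lowest p were those of Cat, the catalase (0.24 ± 0.078), and Sod3, a secreted superoxide dismutase (-0.47 ± 0.23). The other Cat probe set differed by -0.023 ± 0.13, and that of Sod3 by -0.19 ± 0.17. Of 17 for supply of NADPH, which feeds glutathione and thioredoxin reductase, 5 had an unadjusted p under 0.05, led by Nnt (0.26 ± 0.088) and Tkt (0.48 ± 0.16). The other Nnt probe sets differed by 0.18 ± 0.14 and -0.033 ± 0.082, and those of Tkt by 0.30 ± 0.14 and 0.12 ± 0.081. Of 17 for haem breakdown and ferritin 6 did, led by Slc40a1, the iron exporter (-0.48 ± 0.13, adjusted p = 0.0779), which is also a Kupffer cell marker, and Alas1, the first enzyme of haem synthesis (-1.27 ± 0.36, adjusted p = 0.0909).

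**Figure D5:**
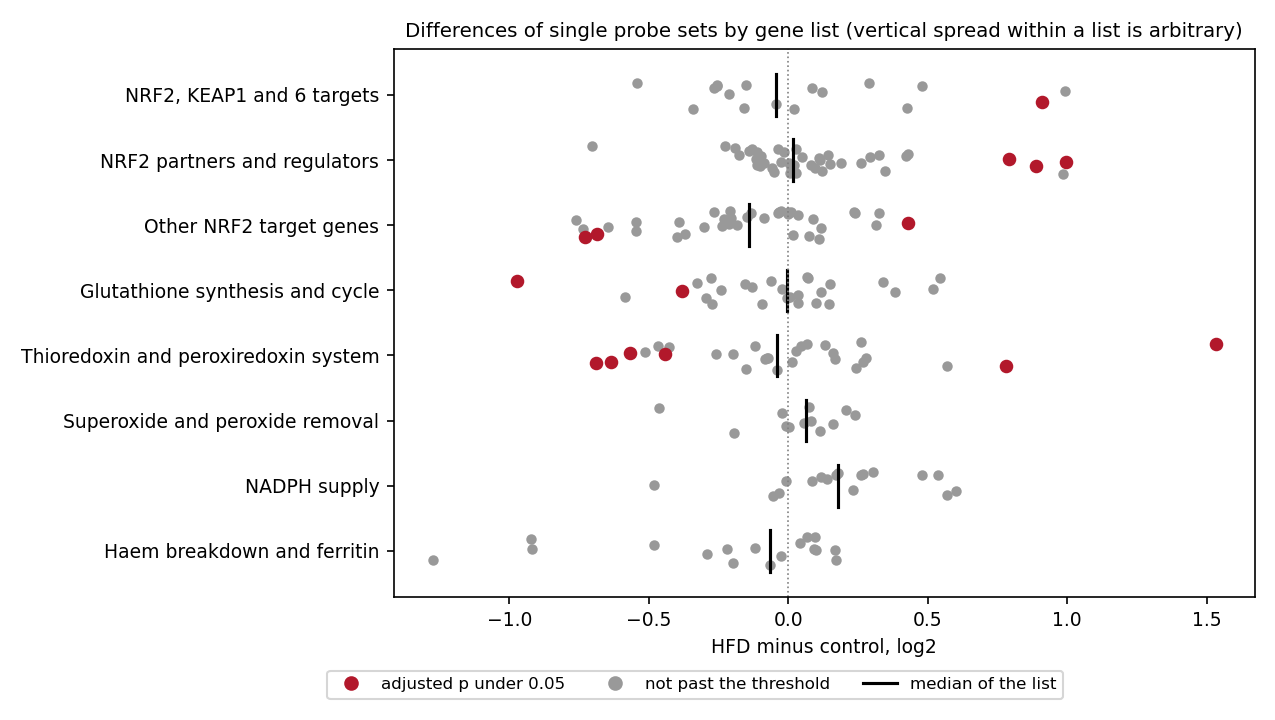
Difference between HFD and control (log2) of every probe set in the NRF2 set and in 7 related gene lists, with filled red points for an adjusted p under 0.05 and a black tick for the median of each list. Points on the far right are Sesn3 (1.53), and the red points on the left of the glutathione list are Slc3a1 (-0.97) and Gsr (-0.38).

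The genes whose values ran most like those of the regulators over the 9 arrays were picked as the highest Pearson r among all probe sets with 1 symbol, and so carry no test. Closest to Nfe2l2 1457117_at were Bbof1 (r = 0.995), Eif5, a translation initiation factor (r = 0.966), and Agap1 (r = 0.966). Of these, Eif5 passed the comparison of the diets, with a rise of 0.71 ± 0.13 (adjusted p = 0.0158), and Bbof1 (0.29 ± 0.083) and Agap1 (0.26 ± 0.083) did not. Closest to Keap1 1450746_at were Tgfbrap1 (r = 0.991), Dctn2, a dynactin subunit (r = 0.9905), and Stard10, a lipid transfer protein (r = 0.985). All 3 were highest in HFD replicates 3 and 5, the arrays with the high 3′ minus 5′ values, at 0.67 and 0.72 in Tgfbrap1, 0.61 and 0.71 in Dctn2 and 0.32 and 0.35 in Stard10, and none passed.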

How the data were processed

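Total RNA of mouse liver (1 microgram) was amplified with oligo-dT primers, labelled with biotin and hybridised to Affymetrix arrays, per the labels' protocols. The deposited log2 values were not altered. Per the series' design text and the submitters' processing notes, the authors summarised probes with RMA (version not given in the sources used here), quantile normalized and set each probe set to its median over all samples. In Nfe2l2 1457117_at the middle value of the arrays used here was 0.13, so the baseline was not the median of exactly these arrays. Which samples entered it cannot be read here. The log base is not stated and was taken from RMA, and centring allows no filter on low signal. Of 41842 probe sets, 60 controls were left out, and of the 41782 tested 32801 had 1 symbol, 862 several and 8119 none in the platform annotation. No 2 arrays held identical values.

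The 5 HFD and 4 control arrays were set against each other with limma 3.58.1, run in R 4.3.3 (lmFit, eBayes, two-sided, Benjamini-Hochberg over all probe sets), after a check on simulated data. Replicates were numbered in order of deposition and pair nothing. Members and gene lists were chosen with earlier results of these data known. Named are all members, the called genes of each list (at most 6) or otherwise the 2 with the lowest p, and the 3 genes most like Nfe2l2 and Keap1. Alternatives were other normalizations, 1 value per gene, fewer probe sets, robust eBayes, array weights, stricter thresholds and leaving out each array. Leaving out HFD replicates 3 and 5, and the motif TGANTCAGC, were added after seeing the data.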

Additional observations from a re-analysis of the deposited data

How the results depend on the processing

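The difference of Nfe2l2 1457117_at kept its sign under all alternatives run on it, from 0.77 to 1.03. The member count of 1 was 0 with the most variable probe set per gene and 0 at an adjusted p under 0.01, 2 without HFD replicates 3 and 5, and 0 to 2 over the fits that left out 1 array. The 1363 calls over all probe sets became 905 with probe sets averaged per gene, 904 without _x_at, _s_at and _a_at probe sets, 369 at an adjusted p under 0.01, 849 with a change of at least 1.5-fold, and 546 to 1481 leaving out 1 array. The 14 calls of the pathway lists became 7 with the most variable probe set per gene, 9 with probe sets averaged, 6 at an adjusted p under 0.01, and 8 to 14 leaving out 1 array. The 16 calls of the cell type lists became 10 with robust eBayes, 2 at an adjusted p under 0.01, 4 without HFD replicates 3 and 5, and 4 to 26 leaving out 1 array. Other alternatives raised the counts over all probe sets, the pathway lists and the cell type lists. They were 1702, 16 and 22 with further quantile normalization, and 1721, 17 and 20 with array weights. Without the 25% of probe sets with the smallest standard deviation they were 1452, 15 and 23. The cause was not tested, except that fewer features or a stricter threshold enter some of these by construction. Among the members, 4 probe sets changed sign when 1 array was left out, none of them called. Keap1 1450747_at ranged from -0.16 to 0.31, Srxn1 1425351_at from -0.47 to 0.088, Srxn1 1426875_s_at from -0.30 to 0.20 and Srxn1 1451680_at from -0.45 to 0.0093. No paired analysis was possible because the labels give no replicate numbers. The number of arrays, and values without levels, limit what can be detected.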
